A study of Mus musculus with 16 samples.

Results

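Immediate early transcription factors were examined in 10 genes taken by name from the 24187 rows of the deposited expression table: Fos, Fosb, Jun, Junb, Atf3, Egr1, Klf4, Nr4a1, Ier2 and Myc. All 10 were found, and 9 averaged 1 FPKM or more and were tested; Fosb was below that level. FPKM are reads per kilobase of gene, scaled for each library by a factor that the sources do not give. The poly(A) RNA came from mammary gland at day 13 of pregnancy, with 4 libraries from wild-type C57BL/6 mice bought from Charles River and 3 from Socs2-Δs mice, labelled as the same strain and made by CRISPR/Cas9 editing. Their name refers to Socs2, a feedback inhibitor of cytokine signalling. The ages of the animals are not stated. The labels used here do not say what the edit changed, how many founders the line has, or whether each library is a different animal. The p-values thus cover only the spread among these libraries, which may be technical. Breeding source and genotype cannot be told apart. In the labels, all 7 carry a wild-type genotype tag, and the 3 mutant libraries were identified by title. Values are listed in order of replicate number throughout.

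Immediate early genes are switched on within minutes of a growth factor, hormone, cytokine or stress signal, without new protein synthesis, and their messages are short-lived. Kinases of the ERK, JNK and p38 pathways reach their promoters through factors already present, such as SRF with the ELK factors, and CREB. FOS and JUN proteins pair through leucine zippers to form AP-1, and in the mammary gland AP-1, EGR1, KLF4 and MYC have been studied in epithelial growth, in involution and in tumours. Dissection and handling of tissue are also known to induce several of these genes.

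Socs2 itself had 25.6, 22.1, 24.8 and 16.1 FPKM across the wild-type libraries and 17.1, 13.9 and 15.99 across the mutant ones, so its message was present in every library labelled as mutant. Reads recovered from the steps between values summed to 21.3 to 24.5 M reads per library (M, mega). Wild-type replicates 3 and 4 stood apart. Their correlation with the other 5 libraries across genes was 0.835 to 0.91, against 0.952 to 0.98 among those 5. The 7 liver markers summed to 208.7 and 2017 FPKM in those 2 libraries and to 6.75 to 10.3 FPKM elsewhere, and the 9 salivary gland markers to 434.9 and 246.3 against 45.8 to 99.7 FPKM. Differences are therefore given against all wild type and against wild-type replicates 1 and 2; both comparisons use the same mutant libraries and share wild-type libraries.

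The 250 bases before the annotated start are shown for Fos, Fosb, Klf4 and Junb, the members whose wild-type and mutant libraries did not overlap in FPKM. Capitals mark TGACG or its reverse complement, the core of the site bound by CREB and ATF proteins. The sequences are from RefSeq on GRCm38.p6, 5′ to 3′ on the gene's strand; the deposited values were made on another build, mm9, per the submitters' processing notes.
Fos (chr12:85473640-85473889, plus strand): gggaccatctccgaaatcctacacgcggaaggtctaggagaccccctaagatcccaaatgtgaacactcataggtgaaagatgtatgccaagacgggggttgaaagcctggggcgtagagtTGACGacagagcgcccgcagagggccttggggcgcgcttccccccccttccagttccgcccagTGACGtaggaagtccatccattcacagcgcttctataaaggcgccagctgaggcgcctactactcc
Fosb (chr7:19310046-19310295, minus strand): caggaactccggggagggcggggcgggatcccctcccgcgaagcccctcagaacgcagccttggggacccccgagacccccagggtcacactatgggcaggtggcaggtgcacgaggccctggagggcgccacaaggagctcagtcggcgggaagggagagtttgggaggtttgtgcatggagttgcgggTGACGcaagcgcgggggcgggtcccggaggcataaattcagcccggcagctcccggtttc
Junb (chr8:84978749-84978998, minus strand): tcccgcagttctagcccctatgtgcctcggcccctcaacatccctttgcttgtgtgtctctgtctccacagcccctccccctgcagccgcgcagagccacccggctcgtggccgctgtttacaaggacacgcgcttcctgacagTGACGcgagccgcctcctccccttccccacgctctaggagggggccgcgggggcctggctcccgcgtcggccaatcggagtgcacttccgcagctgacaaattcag
Klf4 (chr4:55532476-55532725, minus strand): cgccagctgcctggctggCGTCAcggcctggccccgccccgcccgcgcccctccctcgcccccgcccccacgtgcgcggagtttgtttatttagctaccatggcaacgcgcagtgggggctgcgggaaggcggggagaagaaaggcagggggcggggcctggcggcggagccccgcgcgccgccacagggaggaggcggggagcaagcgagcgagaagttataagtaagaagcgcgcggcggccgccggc

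A promoter was found for 7 of the 10 members, those of Atf3, Fos, Fosb, Jun, Junb, Klf4 and Nr4a1. TGACG, searched on both strands, was present in 6 of the 7 and in 17.8% of all 32851 promoter windows of the same length. It was present in genes that lay lower in mutant glands (Fos, Fosb, Klf4) and in Junb, which lay higher. In Fos 1 match lay 66 to 62 bases before the start, and in Fosb 60 to 56. Nr4a1 held 4 matches, the most of the 7, and Jun held none. The full palindrome TGACGTCA, which contains TGACG, was in 0 of the 7 and in 1.55% of all windows. The AP-1 letters TGANTCA were in 0 of the 7 (6.75% of all windows), as were the CArG box of SRF (1.47%) and the STAT letters TTCNNNGAA (7.02%), on both strands. Sites outside the 250 bases before the start, or with other letters, were not searched, so these genes may hold sites elsewhere. TATAAA was in Fos alone among the 7, 33 to 28 bases before the start, and in 12.4% of all windows. GCGNGGGCG, letters bound by EGR proteins, were in Fosb, Klf4 and Nr4a1 and in 4.7% of all windows. A match is a match of letters and was not tested as a site in these glands.

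By mean level, Myc and Ier2 led in both genotypes and Fosb was lowest. In wild-type replicate 4, however, Myc (20.9 FPKM) lay below Ier2 (37.6), Egr1 (31.3), Jun (21.6) and Junb (21.1). In wild type the means were 43.6 ± 21.8 FPKM for Myc and 40.8 ± 4.36 for Ier2 (SD, n = 4). Egr1 (25.2 ± 7.79), Jun (23.6 ± 7.39) and Junb (21.0 ± 2.13) followed and were not separated beyond their spread, and neither were Myc and Ier2. Klf4 came next at 12.6 ± 1.54, followed by Fos at 9.88 ± 2.62, Nr4a1 at 7.09 ± 2.13 and Atf3 at 5.02 ± 1.17 FPKM, where neighbours again lay within their spread. In mutant glands the order was Myc (67.8 ± 5.76), Ier2 (53.5 ± 13.3), Junb (27.6 ± 3.06), Jun (18.2 ± 0.37), Egr1 (17.3 ± 8.5), Klf4 (7.73 ± 0.43), Nr4a1 (7.0 ± 1.23), Fos (5.45 ± 0.38) and Atf3 (4.27 ± 1.03; SD, n = 3). Among the mutant libraries neighbours overlapped except at the steps from Ier2 to Junb, from Junb to Jun and from Egr1 to Klf4.

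**Figure D1:**
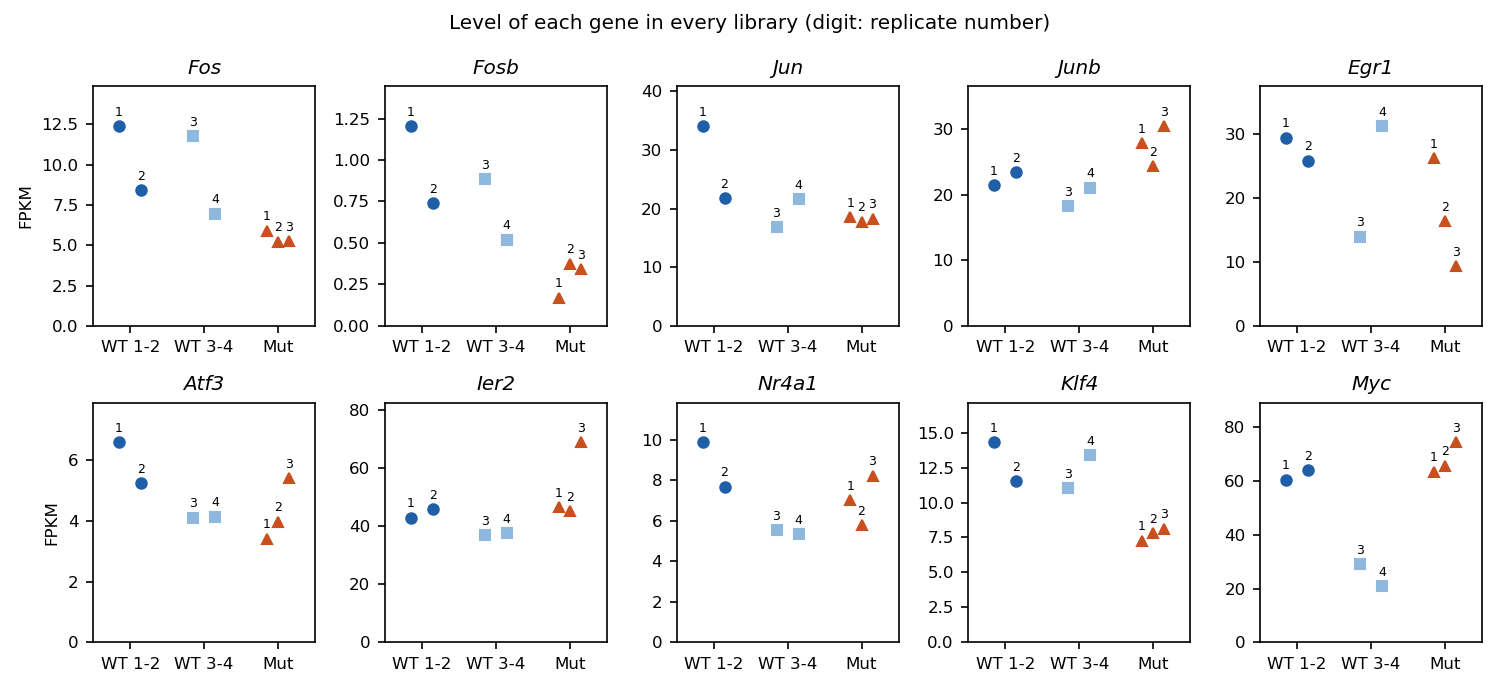
FPKM of the 10 genes in every library, each panel from 0; circles are wild-type (WT) replicates 1 and 2, squares wild-type replicates 3 and 4, triangles the 3 Socs2-Δs (Mut) libraries, and digits are replicate numbers. The mutant libraries lie below all 4 wild-type libraries for Fos, Fosb and Klf4 and above all 4 for Junb, and Myc is low in wild-type replicates 3 and 4.

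The differences of the 10 genes had both signs. Against all wild type, 0 of the 9 tested members passed (limma, Benjamini-Hochberg adjusted p under 0.05), as against 6 of 13392 genes, or 0.0448%, all 6 higher (25 higher and 3 lower with quantile normalization). At an unadjusted p under 0.05 there were 3 members, where the share of all genes was 18.1%. Fos and Klf4 were lower (8.98% of all genes) and Junb higher (9.12%). The groups did not overlap for these 3 tested members, and for 22.5% of all genes tested, 10% lower and 12.5% higher. Of the 9, 5 were lower and 4 higher in mutant glands, where 49.6% of all genes were higher, with a median log2 difference of -0.19, beside a median of -0.004 over all genes. When only wild-type replicates 1 and 2 were used, 0 of 9 passed, where 284 of 13276 genes, or 2.14%, did (1.42% higher and 0.716% lower). In that comparison 3 members were below an unadjusted p of 0.05, Fos, Klf4 and Jun, all lower, beside 20.2% of all genes, 10.7% lower and 9.45% higher. There 6 of the 9 were lower and 3 higher, where 55.4% of all genes were higher, with a median of -0.40 beside 0.033 over all genes. The groups did not overlap for 4 tested members, 3 below and Junb above, and for 40.2% of all genes (18.2% below, 22% above), a share near that of the members.

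FOS proteins form AP-1 only with a JUN partner. The FOS genes among the members, Fos and Fosb, were both lower in mutant glands, whereas their relative Fosl2 was not. Fos measured 12.4, 8.41, 11.8 and 6.96 FPKM across the wild-type libraries and 5.90, 5.22 and 5.24 across the mutant ones. Every mutant library lay below every wild-type library, with wild-type replicate 4 nearest to them. The wild-type mean was 1.81 times the mutant mean, and the difference on log2(FPKM + 1), a scale that compresses the changes of weakly expressed genes, was -0.72 (SE 0.21, limma adjusted p = 0.180). Against wild-type replicates 1 and 2 it was -0.80 (SE 0.17, limma adjusted p = 0.0734). The values of Fos rest on 237 to 662 reads per library. The mutant libraries differed among themselves by 1.13-fold at most and the wild-type libraries by 1.78-fold.

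Fosb, which encodes a close relative of FOS, measured 1.21, 0.739, 0.883 and 0.519 FPKM across the wild-type libraries. Across the mutant libraries it measured 0.170, 0.376 and 0.343 FPKM. All 3 mutant libraries lay below all 4 wild-type libraries, and the ratio of the wild-type to the mutant mean was 2.82, the largest of the 10 genes. It was 3.28 against wild-type replicates 1 and 2. These values rest on 15 to 116 reads, and Fosb was too low to enter the test; on log2(FPKM + 1) the difference was -0.49. When genes at all levels were tested it did not pass (limma adjusted p = 0.247 against all wild type, 0.143 against replicates 1 and 2).

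Among the JUN partners, neither Jun nor Junb passed the test, and the difference between them was not tested. Jun, which forms the most studied AP-1 pair with FOS, measured 34.1, 21.8, 16.8 and 21.6 FPKM across the wild-type libraries and 18.5, 17.8 and 18.3 across the mutant ones. Wild-type replicate 1 was far above the rest, and wild-type replicate 3 was lower than all 3 mutant libraries, so the groups overlapped. The difference was -0.31 (SE 0.23, limma adjusted p = 0.451) and -0.56 against wild-type replicates 1 and 2 (SE 0.19, limma adjusted p = 0.183). Leaving out wild-type replicate 1 from the first gave -0.13, and from the second -0.25.

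Junb, a JUN protein that can restrain JUN at shared sites, measured 21.4, 23.4, 18.2 and 21.1 FPKM across the wild-type libraries. Across the mutant libraries it measured 27.9, 24.4 and 30.5 FPKM, so each mutant library lay above each wild-type library, by 1.31-fold between the means. The nearest were mutant replicate 2 and wild-type replicate 2. In recovered reads these held 1042 of 22.5 M and 1034 of 21.5 M. As a share of its library, Junb in mutant replicate 2 thus lay below that in wild-type replicate 2. The separation of the groups therefore holds for the deposited FPKM, whose library scaling is not given. The difference was 0.37 (SE 0.16, limma adjusted p = 0.266), and 0.28 against wild-type replicates 1 and 2 (SE 0.13, limma adjusted p = 0.299).

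**Figure D2:**
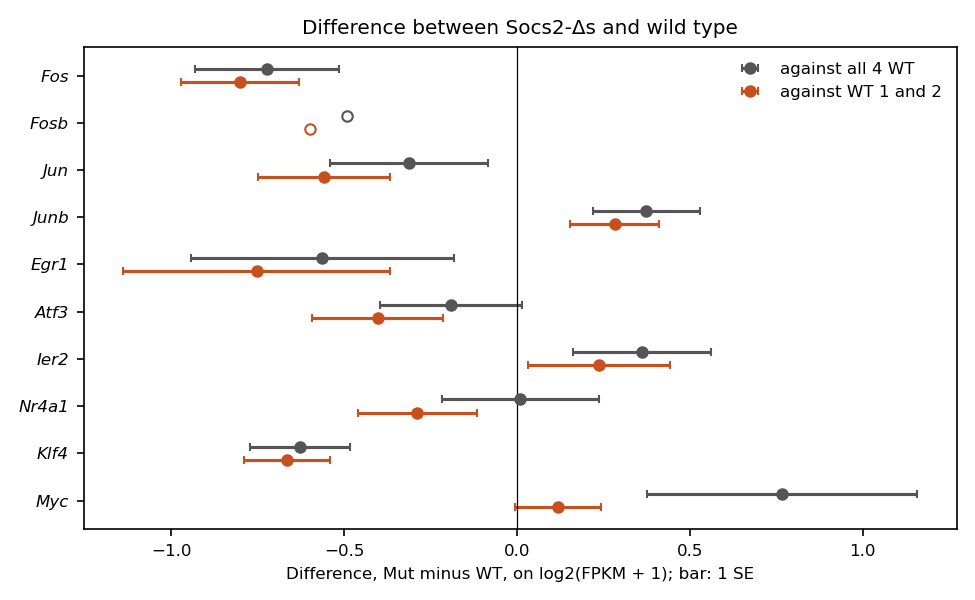
Difference between the Socs2-Δs and wild-type means on log2(FPKM + 1), with bars of 1 SE, against all 4 wild-type libraries (grey) and against wild-type replicates 1 and 2 (orange); the open circles are Fosb, which was not tested and has no SE. Fos, Fosb and Klf4 lie below 0 in both comparisons, Junb above 0 in both, and Myc moves from 0.77 to 0.12.

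A ratio within a library does not depend on how libraries were scaled. The AP-1 genes and Klf4 were therefore also set against Junb, a choice made after their values were seen and given with no test. Jun over Junb was 1.59, 0.931, 0.923 and 1.03 across the wild-type libraries and 0.664, 0.730 and 0.600 across the mutant ones. Jun was thus above or close to Junb in wild type and below it in each mutant library. Fos over Junb was 0.579, 0.360, 0.645 and 0.331 in wild type and 0.212, 0.214 and 0.172 in mutant glands. Fosb over Fos was 0.0747 to 0.0971 in wild type and 0.0288 to 0.0720 in mutant glands, so Fosb was a minor form beside Fos in every library. In FPKM, Fos and Klf4 of the mutant libraries lay below, and Junb above, every wild-type library. The choice of genes thus fixed that Fos over Junb and Klf4 over Junb would not overlap between the groups.

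**Figure D3:**
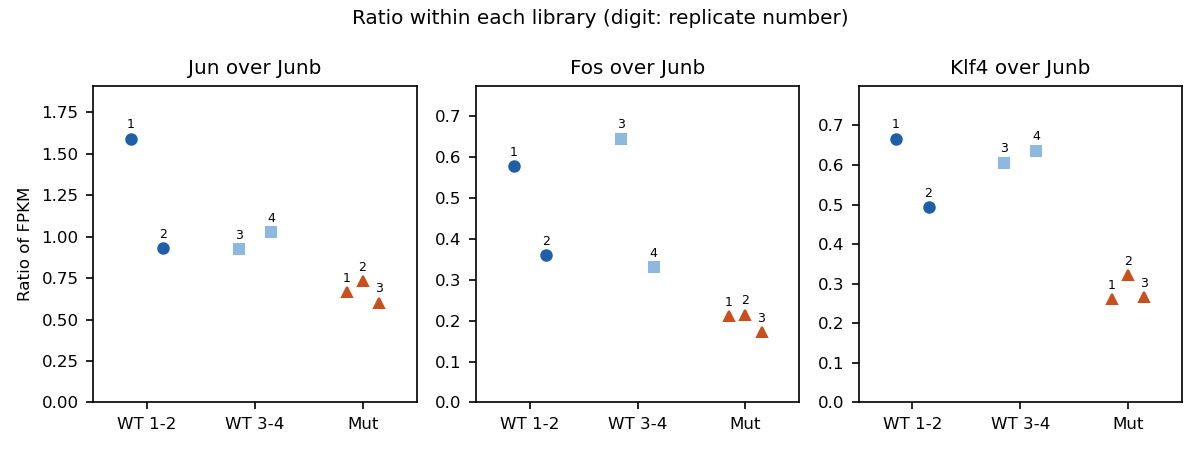
Ratio of the FPKM of Jun, Fos and Klf4 to that of Junb within each library, each panel from 0, with symbols and digits for wild-type (WT) replicates 1 and 2, wild-type replicates 3 and 4 and Socs2-Δs (Mut) libraries. All 3 mutant ratios of Jun to Junb lie between 0.600 and 0.730, below the lowest wild-type ratio of 0.923.

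Atf3, a stress-induced repressor of the ATF and CREB family that can pair with JUN proteins, measured 6.59, 5.25, 4.11 and 4.14 FPKM across the wild-type libraries and 3.41, 3.98 and 5.41 across the mutant ones. The groups overlapped, with mutant replicate 3 above 3 of the 4 wild-type libraries. The difference was -0.19 (SE 0.21, limma adjusted p = 0.597), and -0.40 against wild-type replicates 1 and 2 (limma adjusted p = 0.310). Of the 8 stress-response genes listed beside Atf3, 0 passed in either comparison. Of these, 7 were higher and 1 lower against all wild type (median 0.24), and against replicates 1 and 2, 4 were higher and 4 lower. Trib3, a pseudokinase induced by ATF4 and CHOP, had a mean of 3.64 ± 0.76 FPKM against 5.01 ± 0.38 in the mutants (SD, n = 4 and 3). It differed by 0.39 (limma adjusted p = 0.277), and by 0.49 against replicates 1 and 2 (limma adjusted p = 0.0931). Asns, the asparagine synthetase gene and the lower gene of the 8, differed by -0.51 (limma adjusted p = 0.308) and by -0.26 (limma adjusted p = 0.420).

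Egr1, a zinc-finger factor induced through SRF and ERK, varied most within the mutant group. It measured 29.5, 25.9, 13.99 and 31.3 FPKM across the wild-type libraries and 26.2, 16.4 and 9.31 across the mutant ones, a 2.82-fold spread among the mutant libraries. Wild-type replicates 2 and 3 lay within the mutant range. The difference was -0.56 (SE 0.38, limma adjusted p = 0.415), and -0.75 (SE 0.39, limma adjusted p = 0.347) against wild-type replicates 1 and 2. Its relative Egr2 shared the spread, with 12.2, 9.38, 5.31 and 9.69 FPKM across the wild-type libraries and 6.28, 4.6 and 2.33 across the mutant ones. In both genes mutant replicate 1 was highest and mutant replicate 3 lowest of the mutant group. Egr2 differed by -0.93 (SE 0.33, limma adjusted p = 0.227), and by -1.19 (SE 0.33, limma adjusted p = 0.124) against replicates 1 and 2. The EGR corepressor genes Nab1 and Nab2 differed by -0.18 and 0.01 and did not pass; both signs turned against wild-type replicates 1 and 2 (0.09 and -0.09).

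Klf4, a Krüppel-like factor of epithelial differentiation, had the smallest p of the members. It measured 14.3, 11.5, 11.03 and 13.4 FPKM across the wild-type libraries and 7.27, 7.82 and 8.12 across the mutant ones. The groups were well apart, the lowest wild-type library at 11.03 and the highest mutant library at 8.12 FPKM. The wild-type mean was 1.62 times the mutant mean; the difference was -0.63 (SE 0.15, limma adjusted p = 0.148), and -0.67 (SE 0.12, limma adjusted p = 0.0602) against wild-type replicates 1 and 2. Over the alternatives of the second comparison the adjusted p of Klf4 ran from 0.0573 to 0.323.

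Nr4a1, an orphan nuclear receptor also called NUR77, and Ier2, a small nuclear protein, did not separate the groups. Nr4a1 measured 9.85, 7.67, 5.52 and 5.33 FPKM across the wild-type libraries and 7.02, 5.77 and 8.22 across the mutant ones. Its mutant libraries lay within the wild-type range, with a difference of 0.01 (limma adjusted p = 0.986), whose sign turned with quantile normalization (-0.08), and of -0.29 against replicates 1 and 2 (limma adjusted p = 0.417). Ier2 measured 42.9, 45.9, 36.8 and 37.6 FPKM across the wild-type libraries and 46.5, 45.1 and 68.8 across the mutant ones. Mutant replicate 3 was far above the other 6 libraries, and the rest of the mutant group lay beside wild-type replicate 2. The difference of Ier2 was 0.36 (SE 0.20, limma adjusted p = 0.346), and 0.24 (limma adjusted p = 0.581) against replicates 1 and 2.

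Myc, which drives growth and ribosome production as a dimer with MAX, turned on which wild-type libraries were used. It measured 60.6, 63.9, 29.1 and 20.9 FPKM across the wild-type libraries and 63.4, 65.6 and 74.3 across the mutant ones. The mutant libraries lay beside wild-type replicates 1 and 2, and wild-type replicates 3 and 4 were below the other 5. The difference was 0.77 (SE 0.39, limma adjusted p = 0.321) against all wild type and 0.12 (SE 0.13, limma adjusted p = 0.655) against replicates 1 and 2. The low libraries were those with liver and salivary gland markers, whose part in the level of Myc was not tested. Of 10 tested genes of the MYC network 0 passed in either comparison. Of these, 7 were higher and 3 lower against all wild type (median 0.19), and against replicates 1 and 2, 9 were higher and 1 lower (median 0.24). Mlxip, a glucose-sensing partner of MLX, averaged 10.2 ± 2.35 FPKM in the wild-type libraries and 17.2 ± 2.0 in the mutant ones. It differed by 0.72 (limma adjusted p = 0.168), and by 0.46 against replicates 1 and 2 (limma adjusted p = 0.118). Zbtb17, the MIZ1 partner of MYC, averaged 7.13 ± 2.62 and 12.9 ± 0.85 FPKM, and was lowest in wild-type replicates 3 and 4 (5.68 and 4.19). It differed by 0.83 (limma adjusted p = 0.198), and by 0.43 against replicates 1 and 2 (limma adjusted p = 0.101).

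The 15 growth genes that MYC induces had 0 calls in either comparison, with 8 higher and 7 lower against all wild type (median 0.04) and 5 higher and 10 lower against replicates 1 and 2 (median -0.05). Ccnd2, cyclin D2, averaged 28.3 ± 10.5 FPKM against 12.2 ± 3.04 in the mutants, a difference of -1.12 (limma adjusted p = 0.160). Against replicates 1 and 2 it was -0.79 (limma adjusted p = 0.114). Ldha, lactate dehydrogenase A, stood at 573.4 and 654.4 FPKM in the third and the fourth wild-type library and at 226.0 to 295.6 in the other 5 libraries. Its difference was -0.73 (limma adjusted p = 0.329) with those libraries and -0.14 (limma adjusted p = 0.710) without them.

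Other immediate early transcription factors numbered 17 tested genes, with 0 calls in either comparison. There were 8 higher and 9 lower against all wild type, with a median of -0.01. Against wild-type replicates 1 and 2, 6 were higher and 11 lower, with a median of -0.19. The mutant libraries lay below every library of that pair for 7 genes and above for 2. Of all genes, 18.2% lay below and 22% above. Beside Egr2, Nfil3, a bZIP repressor, had the smallest p, at 3.46 ± 0.85 FPKM against 1.92 ± 0.09 in the mutants. It differed by -0.59 (limma adjusted p = 0.196) and by -0.53 (limma adjusted p = 0.116).

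Of 11 tested AP-1 relatives and partners, 0 passed in either comparison; 5 were higher and 6 lower against all wild type (median -0.05), and 6 higher and 5 lower against replicates 1 and 2 (median 0.11). Mafg, a small MAF protein, measured 17.2, 16.7, 5.32 and 6.27 FPKM across the wild-type libraries and 24.0, 20.5 and 23.1 across the mutant ones. Wild-type replicates 3 and 4 were low, as for Myc. The difference of Mafg was 1.09 with them (limma adjusted p = 0.237) and 0.39 without them (limma adjusted p = 0.133). Atf7, an ATF2 relative, differed by 0.71 (limma adjusted p = 0.252) and by 0.61 (limma adjusted p = 0.393). The FOS relative Fosl1 was at 0 to 0.0543 FPKM in all libraries, whereas Fosl2 was at 6.5 to 10.6. Fosl2 differed by 0.04 (limma adjusted p = 0.913), and by 0.13 against replicates 1 and 2 (limma adjusted p = 0.776). Jund, the JUN gene that is expressed without stimulus, was at 49.5 to 82.6 FPKM.

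Among 30 tested feedback and effector genes, Dusp4 alone passed, against wild-type replicates 1 and 2. In that comparison 11 were higher and 19 lower (median -0.11). An unadjusted p under 0.05 was reached by 3 of the higher and 8 of the lower genes. Of all genes, 9.45% were higher and 10.7% lower at that p. With all wild type, 16 were higher and 14 lower (median 0.03), of which 5 and 2 were below that p. There the shares of all genes were 9.12% higher and 8.98% lower. Dusp4, a nuclear phosphatase that inactivates ERK and JNK, measured 18.1, 14.3, 14.5 and 9.09 FPKM across the wild-type libraries and 41.6, 42.0 and 34.8 across the mutant ones. Every mutant library was well above every wild-type library. Dusp4 rose against wild-type replicates 1 and 2 (1.24, limma adjusted p = 0.0278) and did not pass against all wild type (1.46, SE 0.23, limma adjusted p = 0.0850). The call was lost when any of the 5 libraries was left out (limma adjusted p = 0.051 to 0.165), and when genes at all levels were tested (0.0669). The 26 upstream kinases and factors had 0 calls in either comparison, with 13 higher and 13 lower against all wild type (median -0.04) and 17 higher and 9 lower against replicates 1 and 2 (median 0.03). The ERK-activated kinase gene Rps6ka1 differed by 0.54 (limma adjusted p = 0.265) and by 0.27 (limma adjusted p = 0.462). Elk1, a partner of SRF, differed by -0.35 (limma adjusted p = 0.301) and by -0.20 (limma adjusted p = 0.437).

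**Figure D4:**
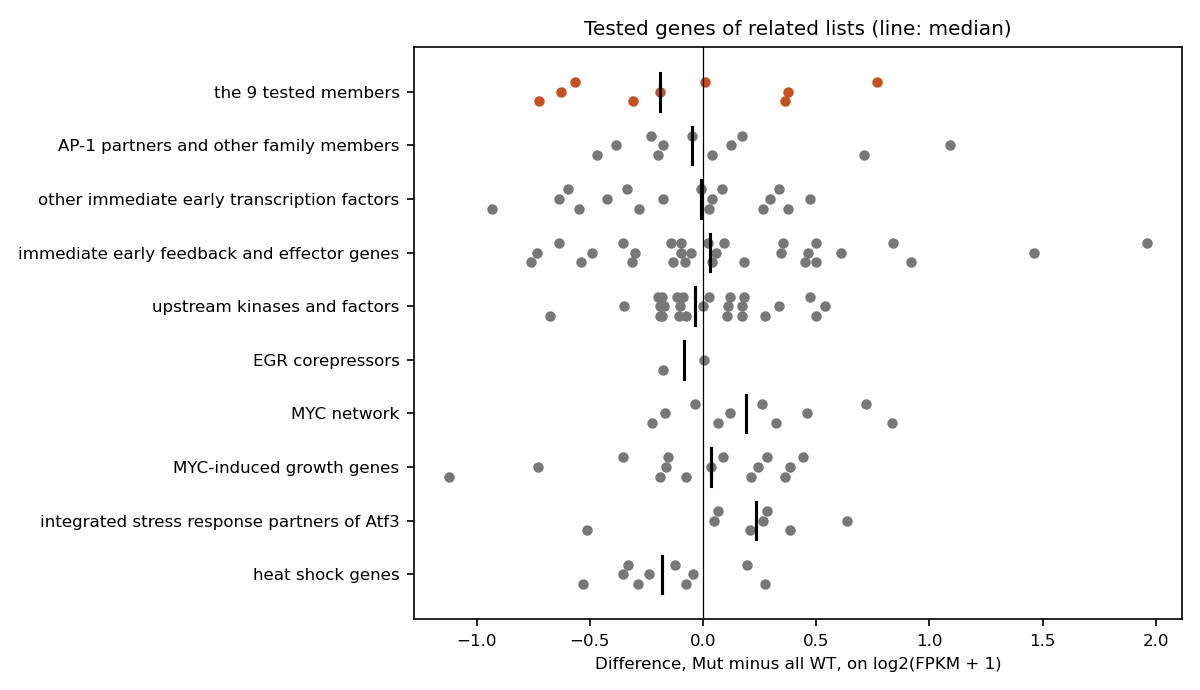
Differences of all tested genes of each list on log2(FPKM + 1), Socs2-Δs (Mut) minus all wild type (WT), 1 point per gene, staggered vertically for legibility, with the median as a line. Each list spreads to both sides of 0, and the highest point of the feedback list is Gadd45g at 1.96.

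Wild-type replicate 1 was the highest of the 7 libraries for 6 of the 10 members, Fos, Fosb, Jun, Atf3, Nr4a1 and Klf4, whereas it was the highest for 7.46% of all genes tested. It was also the highest for 10 of the 30 feedback and effector genes and for 6 of the 17 other transcription factors, but for 1 of the 26 upstream kinases and factors. Mutant replicate 3 was highest for Junb, Ier2 and Myc, beside 15.5% of all genes. Of 10 heat shock genes, which encode chaperones, 8 were lower and 2 higher in each comparison, with 0 calls; the median was -0.18 against all wild type and -0.03 against replicates 1 and 2. Hspb1 averaged 63.2 ± 7.5 FPKM against 51.6 ± 4.87 in the mutants, and differed by -0.29 (limma adjusted p = 0.365) and by -0.40 (limma adjusted p = 0.196). Hspe1 differed by -0.53 (limma adjusted p = 0.431) and by -0.02 (limma adjusted p = 0.978). Which glands were handled together is not in the labels.

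Markers of several cell types differed between the same groups as Fos, Fosb and Klf4. The 8 adipocyte markers summed to 10571 to 22314 FPKM in wild type and 3378 to 6459 in mutant glands, and all 8 were lower. The 6 macrophage markers found, all lower, summed to 98.4 to 176 and to 63.1 to 87.3 FPKM, and the 6 fibroblast markers, 5 of them lower, to 2252 to 2813 and to 1372 to 1952. The 6 alveolar secretory markers, all higher, summed to 3097 to 29872 and to 49598 to 64280 FPKM. The 6 endothelial markers summed to 130.7 to 198.5 and to 124.9 to 150.6 FPKM, and overlapped. Neutrophil markers (5 found) summed to 16.4 to 94.8 and to 9.38 to 14.7 FPKM, and of the 4 tested 3 were lower and 1 higher. Lymphocyte markers were high in 1 library of each group, at 265.4 FPKM in wild-type replicate 4 and 193.0 in mutant replicate 2, and at 6.3 to 10.98 in the others. The 6 muscle markers (38.3 to 694.9 and 39.7 to 138.3 FPKM) and the 6 basal markers (456.1 to 880.4 and 751.8 to 908.2) overlapped. Of the erythroid markers, Hbb-b2 and Hbb-bs were listed at 0 in every library. The luminal keratin and adhesion markers of mammary epithelium were present in every library (733.2 to 1637 FPKM in wild type and 1298 to 1983 in the mutants, summed over 7 genes), and all 7 were higher in the mutants. Fewer cells of a type and less RNA per cell cannot be told apart in whole gland, and the part of cell composition in the levels of the 10 genes was not tested.

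Over the 7 libraries, the tested genes whose pattern was most like that of Fos were Fam118a (Pearson r = 0.976 on log2(FPKM + 1), n = 7 libraries), Zfp105 (0.975), the growth factor gene Igf2 (0.963), Pof1b (0.955) and Socs2 (0.954). Next came Abca5, Dfna5, Cpz, Eva1a and Slco1a5, at 0.953 to 0.937. These are descriptions that include the difference between genotypes and the shared libraries, and 1.05% of the 13391 other tested genes had r above 0.8. No other tested member was among them. Fosb, below the level for testing, was not ranked, so its likeness to Fos is not given here. Klf4 was the nearest tested member at 0.766, followed by Jun at 0.548, while Junb was at -0.786 and Ier2 at -0.571. Igf2 measured 31.5, 27.5, 32.6 and 16.4 FPKM across the wild-type libraries and 14.1, 13.97 and 14.1 across the mutant ones, and like Fos it was lowest among wild type in replicate 4.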

How the data were processed

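The RNA table of 7 libraries was used, and the 9 other samples (ChIP-seq and DNase-seq) were not. The authors deposited FPKM per gene. The build mm9 and the tools CASAVA, Bowtie2, STAR and DESeq2 appear, with no roles or versions, in the submitters' processing notes. Annotation, library scaling and strandedness are not given in the sources, so a gene's reads may include those of an overlapping or antisense gene. Libraries were grouped by title. RefSeq names (GRCm38.p6) replaced 39 missing or date-like names. Reads were recovered as the smallest whole numbers fitting a gene's 7 values within 0.02 of a read, which solved all 21044 rows with a value above 0; a multiple shared by all libraries of a gene would go unseen. Relative to wild-type replicate 1, the FPKM that 1 read stood for was 1.20 in wild-type replicate 3 and 1.25 in replicate 4. Wild-type replicate 3 had the most recovered reads (24.5 M, against 21.3 M in replicate 1), so the scaling did not follow these totals. The members rest on 15 reads (Fosb) to 3853 reads (Myc) in a library, and the spread between libraries includes this counting error.

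Differences were tested with limma 3.58.1 in R 4.3.3 (linear model, empirical Bayes, trend on mean level) on log2(FPKM + 1), over every gene averaging 1 FPKM or more in the libraries fitted, without covariates, adjusted by Benjamini and Hochberg at 0.05. The fit was tested on simulated data. The members and lists were chosen with earlier results of these data known. All members were named; from each list, genes past the threshold in either comparison (at most 4 per direction), or else the 2 of smallest p, and the 10 tested genes most correlated with Fos. Fosl1, Fosl2, Jund and Gadd45g were named after their values were seen. Of the listed genes, Mycl1, Adgre1 and Ly6g were not found by symbol; Emr1, an older name of Adgre1, was.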

Additional observations from a re-analysis of the deposited data

How the results depend on the processing

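The number of tested members called was 0 under each alternative, 13 against all wild type and 10 against wild-type replicates 1 and 2. The tested members other than Nr4a1 kept their direction under all of these. Against all wild type Nr4a1 turned to -0.081 with quantile normalization, -0.288 with wild-type replicates 3 and 4 given a term of their own, and -0.097 with the replicate block; leaving out 1 library gave -0.099 to 0.162, negative without wild-type replicate 3 or 4 or mutant replicate 3. Nab1 turned to 0.09 with that term. Nab2 turned to -0.061 with quantile normalization and -0.094 with the term, and leaving out 1 library gave -0.057 to 0.073. Hspe1, at -0.021 against replicates 1 and 2, ran from -0.337 to 0.294 when 1 library was left out. The causes were not tested.

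Against all wild type the 6 genes called became 1 with a pseudocount of 0.1, 1 without a filter, 28 with quantile normalization, 0 with the term, and 0 to 31 when 1 library was left out (31 without wild-type replicate 4, 17 without wild-type replicate 3, 1 without mutant replicate 3, 0 without any other). Against wild-type replicates 1 and 2 the 284 became 25 without a filter and 0 to 66 when 1 library was left out (2 and 0 without wild-type replicates 1 and 2, 25, 8 and 66 without mutant replicates 1, 2 and 3); a wild type left with 1 library is assumed to vary like the mutant group. Neither scaling alternative moved the median of all genes by over 0.1.

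Replicate numbers are shared by the groups, but the labels do not say that they pair animals. Deviations of same-numbered libraries correlated at 0.347, 0.055 and 0.191, and each library correlated best with its own number. For wild-type replicate 2 the margin was small, 0.055 against 0.048 with mutant replicate 3. This is at most a weak hint of pairing. With the replicate block 0 genes were called against all wild type (replicates 1 to 3) and 257 against replicates 1 and 2 (mutant replicates 1 and 2), where the same libraries without it gave 31 and 66; Egr2 passed in the latter (-0.876, limma adjusted p = 0.0421). A gene at the level of Fosb, at 15 reads in 1 library, is limited by depth.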
